A study of Homo sapiens with 2 samples.

Results

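Cytosolic ribosomal proteins are the protein subunits of the ribosome that translates nuclear-encoded mRNAs, named RPL in the large subunit and RPS in the small one. Expression of their genes was measured in Ca9-22, a cultured line of human gingival squamous cell cancer. The cells were stably transduced with a vector for RUNX2, a transcription factor best known from osteoblasts, or with an empty vector, and both groups were selected with blasticidin. With 1 array per group there is no replicate and therefore no test, and this number of arrays sets how precise any value can be. Whether the transduced cells were a pool or a clone is not given in the sources used here. Members were probe sets whose single annotated symbol is a cytosolic ribosomal protein gene, without pseudogenes and the RPS6K kinases. They belonged to 61 of 19775 genes that have a probe set with a single symbol, 39 of the large and 22 of the small subunit. These genes held 122 of the 54613 probe sets that are not controls.

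Levels are the deposited intensities in arbitrary units, with the array labelled RUNX2 multiplied by 0.966 so that the trimmed means of both arrays are equal. Ratios are log2 of the array labelled RUNX2 over the empty vector array, and a positive value means a higher level in the array labelled RUNX2. A probe set counts as measured if it exceeded the median of at least 1 array (51.8 for the array labelled RUNX2 and 55.3 for the empty vector array). RUNX2 itself did not settle the labels. Of its 3 measured probe sets, 216994_s_at read 854 in the array labelled RUNX2 and 204 in the empty vector array. The probe set 221282_x_at read 353 in the array labelled RUNX2 and 102 in the empty vector array. The probe set 232231_at went the other way, with 433 in the array labelled RUNX2 and 1746 in the empty vector array. Every direction below therefore rests on the labels. Of 9 squamous epithelial markers, 6 were carried by a single-symbol probe set, and all 6 were measured, with summed levels of 43739 in the array labelled RUNX2 and 34251 in the empty vector array. None of 4 leukocyte markers with a probe set of their own was measured, nor were 6 of 7 fibroblast markers, and the remaining one, COL1A1, read 1553 in the array labelled RUNX2 and 1937 in the empty vector array. Of 4 endothelial markers, 2 were measured, and the levels of the 4 summed to 129 in the array labelled RUNX2 and 163 in the empty vector array.

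Ribosomal protein mRNAs are among the most abundant in a growing cell and are made in balance, since a ribosome holds a single copy of most of its proteins. Many of them begin with a 5′ terminal oligopyrimidine tract, called TOP, an unbroken run of C and U at the very start of the mRNA. Through this tract, and the RNA-binding protein LARP1, the mTOR kinase couples their translation to growth signals. The protein of a ribosomal gene can also act off the ribosome: RPL5, RPL11 and RPL23 bind MDM2 and thereby stabilise p53.

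The sequence around the transcription start was searched for a long run of C and T. Such a run is not the same as a TOP tract, since it need not begin at the start. RefSeq starts of assembly GRCh38.p14 were found for 53 of the 61 genes. A run of at least 8 C or T bases that touched the 5 bases before or after the start was present at 39 of these 53 genes (73.6%), against 13.7% of all 27305 genes in the table. Below, 15 bases before and 15 after the start are shown 5′ to 3′ with the part of such a run inside this window in capitals. The first 9 genes were chosen for the results that follow: RPL12, RPL14, RPL36, RPL18, RPL22 and RPS9 are low in the array labelled RUNX2, RPL39 has the ratio nearest to 0 among bright genes, and RPS6 and RPS27 are small subunit genes. The last 5 are variant paralogs.
RPL12, chr9:127451392-127451421, minus strand: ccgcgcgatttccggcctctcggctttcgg
RPL14, chr3:40457324-40457353, plus strand: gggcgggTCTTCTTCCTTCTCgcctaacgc
RPL36, chr19:5690280-5690309, plus strand: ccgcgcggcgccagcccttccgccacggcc
RPL18, chr19:48619164-48619193, minus strand: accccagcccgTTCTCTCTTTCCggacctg
RPL22, chr1:6199581-6199610, minus strand: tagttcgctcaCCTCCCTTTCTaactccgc
RPS9, chr19:54200843-54200872, plus strand: gtggcgcttccgcgCCTCTTTCTCagtgac
RPS6, chr9:19380222-19380251, minus strand: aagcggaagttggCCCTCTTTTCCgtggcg
RPS27, chr1:153990747-153990776, plus strand: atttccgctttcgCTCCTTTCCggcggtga
RPL39, chrX:119791616-119791645, minus strand: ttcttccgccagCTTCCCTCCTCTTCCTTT
RPL22L1, chr3:170870181-170870210, minus strand: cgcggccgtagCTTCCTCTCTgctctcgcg
RPL36AL, chr14:49620612-49620641, minus strand: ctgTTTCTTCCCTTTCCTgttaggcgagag
RPS27L, chr15:63157463-63157492, minus strand: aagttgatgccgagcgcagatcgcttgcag
RPL26L1, chr5:172958714-172958743, plus strand: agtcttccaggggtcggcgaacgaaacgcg
RPL7L1, chr6:42879601-42879630, plus strand: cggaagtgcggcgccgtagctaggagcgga
In 37 of the 47 genes that are not variant paralogs the run was found, and in 2 of 6 variant paralogs. Those with it were RPL22L1 and RPL36AL. RPL12 and RPL36 had shorter runs of 6 and 7 bases, which reach into the mRNA at the start. In RPL36AL most of the run lies before the start. A run of these letters near an annotated start is a description and does not sort genes with a TOP tract from those without. A missing one says only that no run of this length was found there.

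Probe sets that report ribosomal protein mRNAs at high level were slightly lower throughout in the array labelled RUNX2. Of 122 member probe sets, 109 were measured, and 75 of these had a level of 2000 or above (geometric mean of both arrays, a limit chosen after the data were seen). Of the 75, 71 were below 0, where 53.8% of all 1546 probe sets at such levels were below 0. Their median log2 ratio was -0.17, a level 1.12-fold lower. Its size depended on the scaling, with -0.12 on the deposited scale and after loess on level, -0.10 after quantile normalization and -0.08 with equal medians. The 1424 other probe sets of that level, without members and without probe sets that carry a ribosomal protein symbol among several, had a median of -0.00 and 50.2% below 0. In these bulk samples, fewer cells with a transcript and less of it per cell cannot be told apart.

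The 4 bright probe sets above 0 all belonged to variant paralogs, RPL22L1, RPL36AL, RPL7L1 and RPS27L. The remaining 71 were all below 0, between -0.48 and -0.02, with an SD of 0.09. The other bright probe sets had an SD of 0.36, but most of them were read at lower levels than the members. At a level of 8000 or above the SD was 0.08 for 57 members and 0.21 for 153 other probe sets. Between 2000 and 8000 it was 0.07 for 14 members that are not variant paralogs and 0.38 for 1271 other probe sets. Under other scalings 9 of the 71, each of a different gene, crossed 0. Counts below 0 were then 69 of 71 on the deposited scale, 63 with equal medians, 66 after quantile normalization and 69 after loess on level, where 42.6%, 36.7%, 49.5% and 47.4% of the other bright probe sets were below 0. The medians of those other probe sets were 0.05 on the deposited scale, 0.09 with equal medians, 0.00 after quantile normalization and 0.02 after loess. The differences were small in size. At least 1.2-fold lower were 12 of the 75, against 17.9% of all probe sets of that level, and none was at least 1.2-fold higher, against 17.2%. The share lower differed with level. At 8000 or above it was 4 of 57 members and 8 of 153 other probe sets. Between 2000 and 8000 it was 8 of 14 members that are not variant paralogs and 240 of 1271 other probe sets. No bright member differed by 2-fold or more, against 0.453% lower and 1.23% higher among all bright probe sets. Over all 109 measured members, dim ones included, 82 were below 0 (54.8% of all measured probe sets), 18 were at least 1.2-fold lower (24%) and 10 at least 1.2-fold higher (21.2%).

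**Figure D1:**
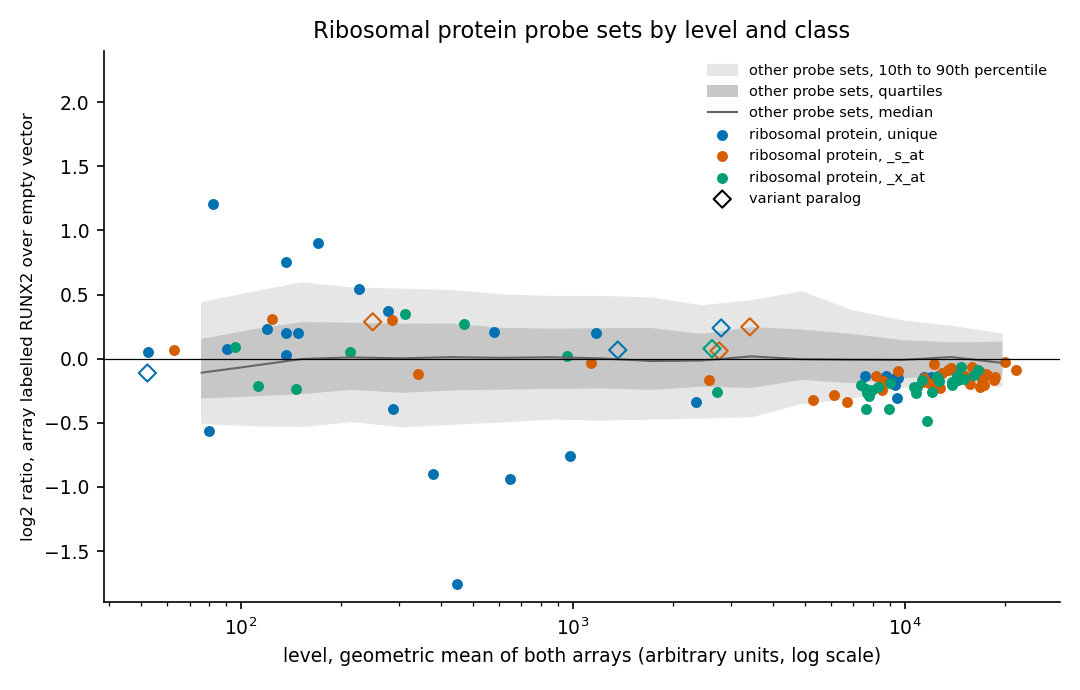
Log2 ratio of each measured ribosomal protein probe set (array labelled RUNX2 over empty vector, 1 array each) against its level on a log axis, coloured by probe class, with variant paralogs as open diamonds and the spread of other probe sets in grey. Above a level of 2000 the 71 points that are not variant paralogs lie between -0.48 and -0.02, and under 2000 the points spread between -1.76 and 1.21. RPS4Y1 is not drawn.

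Probe sets ending in _x_at or _s_at can match several transcripts, which matters for a family with many processed pseudogenes. Among probe sets of level 2000 or above the shift was present in each class. Over all 35 measured unique probe sets, dim ones included, 20 were below 0 (57.1%), against 54.8% of all measured probe sets. Of these 35, 8 were at least 1.2-fold lower (24% of all) and 5 at least 1.2-fold higher (21.2%). Below 0 were 33 of all 39 measured _s_at and 29 of all 35 measured _x_at probe sets. Unique probe sets of level 2000 or above numbered 14, of which 13 were below 0, with a median of -0.14. The 33 bright _s_at probe sets had a median of -0.15 with 31 below 0, and the 28 bright _x_at probe sets one of -0.21 with 27 below 0. The exceptions in the 3 classes were the variant paralogs named above. Where a gene had 2 or more bright probe sets, their log2 ratios spread with an SD of 0.06 over 15 genes. Over all 200 genes with 2 or more bright probe sets this SD was 0.14. This spread is technical, from within the arrays, and stands in for no replicate.

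The size of the shift differed between level classes. At a level of 8000 or above, all 57 member probe sets were below 0 (71% of all 252 probe sets there, members included), with a median of -0.16, and 153 other probe sets of that level had a median of -0.01. The 14 members between 2000 and 8000 that are not variant paralogs had a median of -0.27, where 1271 other probe sets had 0.00. These 14 came from RPL3, RPL12, RPL14, RPL22, RPL29, RPL34, RPL35A, RPL36 and RPS9. All 5 probe sets of RPL22 were among them, and level and gene were not told apart. The highest member was RPL41, at 21022 in the array labelled RUNX2 and 22346 in the empty vector array. The highest value of any probe set was 22450 in the empty vector array and 23248, before scaling, in the array labelled RUNX2. The part that the upper end of the scale has in the smaller ratios of the brightest probe sets was not tested.

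Large subunit genes held the lowest ratios. Taking the brightest probe set of each gene, RPL12, a protein at the base of the ribosomal stalk, read 9869 in the array labelled RUNX2 and 13805 in the empty vector array, a log2 ratio of -0.48, and its other probe set had one of -0.39. RPL14 read 7836 in the array labelled RUNX2 and 10310 in the empty vector array, 1.32-fold lower, with -0.34 in a second bright probe set and 0.03 in the dim unique 219138_at. Both genes were low in each bright probe set. RPL36 read 4716 in the array labelled RUNX2 and 5905 in the empty vector array (1.25-fold lower). RPL18, measured by a bright unique probe set, read 8509 in the array labelled RUNX2 and 10520 in the empty vector array (1.24-fold lower). For RPL31 the levels were 9836 in the array labelled RUNX2 and 11809 in the empty vector array (log2 ratio -0.26). RPL22 was low in all 5 of its probe sets, between -0.34 and -0.17. The unique RPL22 probe set, 221726_at, was the lowest of these, at 2081 in the array labelled RUNX2 and 2635 in the empty vector array.

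Among bright large subunit genes that are not variant paralogs, the ratios nearest to 0 were those of RPL39, with 19849 in the array labelled RUNX2 and 20170 in the empty vector array, a log2 ratio of -0.02, and of RPL6, with 12082 in the array labelled RUNX2 and 12412 in the empty vector array, a ratio of -0.04. Both were above 0 on the deposited scale, with equal medians and after loess, and RPL6 also after quantile normalization. RPL11, the MDM2 partner, read 9035 in the array labelled RUNX2 and 10010 in the empty vector array, a log2 ratio of -0.15. RPL19 and RPL34, with unique probe sets, had -0.13. RPL8, which lies close to the peptidyl transferase centre, had -0.20 in a unique probe set. Of the stalk proteins P1 and P2, which recruit translation factors, RPLP1 had -0.22 at 15592 in the array labelled RUNX2 and 18134 in the empty vector array. RPLP2 was measured only by a probe set near the floor, 64.4 in the array labelled RUNX2 and 61.6 in the empty vector array. No probe set carried RPLP0, RPL5, RPL23 or RPSA as its single symbol.

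**Figure D2:**
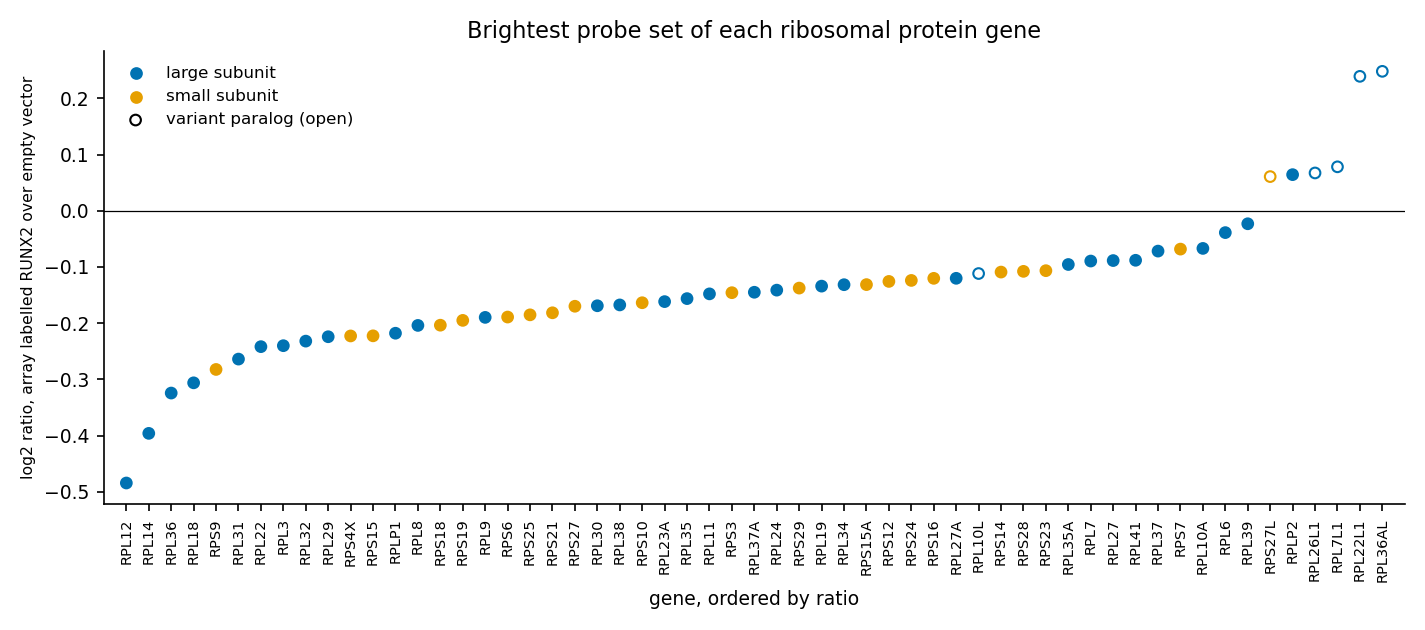
Log2 ratio (array labelled RUNX2 over empty vector, 1 array each) of the brightest measured probe set of each ribosomal protein gene, ordered by ratio, with variant paralogs as open circles. RPL12 lies lowest at -0.48, and the points above 0 are 5 variant paralogs and RPLP2, which was read near the floor. RPS4Y1 is not drawn.

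Small subunit genes formed a tighter group. The 21 bright small subunit genes that are not variant paralogs had a median of -0.15 (brightest probe set), with a range of -0.28 to -0.07 and an SD of 0.05. The 29 such large subunit genes had a median of -0.16, a range of -0.48 to -0.02 and an SD of 0.11. These small subunit genes had higher median levels, 13700 in the array labelled RUNX2 and 15134 in the empty vector array. Those of the large subunit genes were 11082 in the array labelled RUNX2 and 12639 in the empty vector array. The part that level has in the difference of spread was not tested. RPS9 was the lowest small subunit gene, with 5564 in the array labelled RUNX2 and 6767 in the empty vector array (1.22-fold lower), and -0.26 in its other bright probe set. RPS6, the substrate of the S6 kinases, had log2 ratios between -0.19 and -0.13 over 3 bright probe sets. Its brightest read 8468 in the array labelled RUNX2 and 9654 in the empty vector array. RPS19, the gene most often mutated in Diamond-Blackfan anaemia, had -0.19, at 14706 in the array labelled RUNX2 and 16835 in the empty vector array. RPS3, which lines the mRNA entry channel, had -0.15 in its single, unique probe set. RPS29 and RPS23 had bright unique probe sets at -0.14 and -0.11. The Y-linked RPS4Y1 is counted here and no level is given. Its X-linked counterpart RPS4X had -0.22 in both of its probe sets.

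Variant paralogs are additional genes that encode close relatives of a ribosomal protein, some of which can take the place of the standard protein in the ribosome. Of the 8 paralogs examined, 6 were measured and 5 had a brightest probe set above 0. RPL22L1 read 3038 in the array labelled RUNX2 and 2574 in the empty vector array, 1.18-fold higher in a unique probe set. Its parent gene RPL22 was 7326 in the array labelled RUNX2 and 8662 in the empty vector array (brightest probe set). The ratio of the paralog exceeded that of the parent by 0.48 on the log2 scale. In mice, the Rpl22 protein is known to repress Rpl22l1. RPL36AL, an intronless copy of RPL36A, read 3719 in the array labelled RUNX2 and 3132 in the empty vector array, 1.19-fold higher, while the single probe set of RPL36A alone lay under the floor.

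The paralogs RPS27L and RPL7L1 were nearer to 0. RPS27L, a known p53 target, read 2818 in the array labelled RUNX2 and 2702 in the empty vector array (log2 ratio 0.06), and 275 in the array labelled RUNX2 and 226 in the empty vector array in a dim probe set (0.29). Its parent RPS27 read 17476 in the array labelled RUNX2 and 19659 in the empty vector array, a ratio of -0.17 in its brightest probe set, and the paralog exceeded that by 0.23. RPL7L1 read 2697 in the array labelled RUNX2 and 2555 in the empty vector array (0.08), and RPL7 was 16143 in the array labelled RUNX2 and 17176 in the empty vector array (-0.09, brightest probe set), a gap of 0.17. Both gaps turned with the probe set of the parent: the dim unique probe sets of RPS27 and RPL7 had 0.75 and at least 1.21, and against them the gaps were -0.69 and -1.13 or below. The gap of RPL22L1 was 0.58 against the unique probe set of RPL22. RPL26L1, with 1397 in the array labelled RUNX2 and 1334 in the empty vector array, had 0.07. All 5 of these paralogs lay above 0 under each scaling. At a level between 2000 and 4000, where 4 of the 5 were read, 911 other probe sets had a median of 0.00. RPL10L, a gene known from the testis, lay at the floor with 48.7 in the array labelled RUNX2 and 56.0 in the empty vector array. RPL3L, known from striated muscle, and RPL39L lay under the floor on both arrays.

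**Figure D3:**
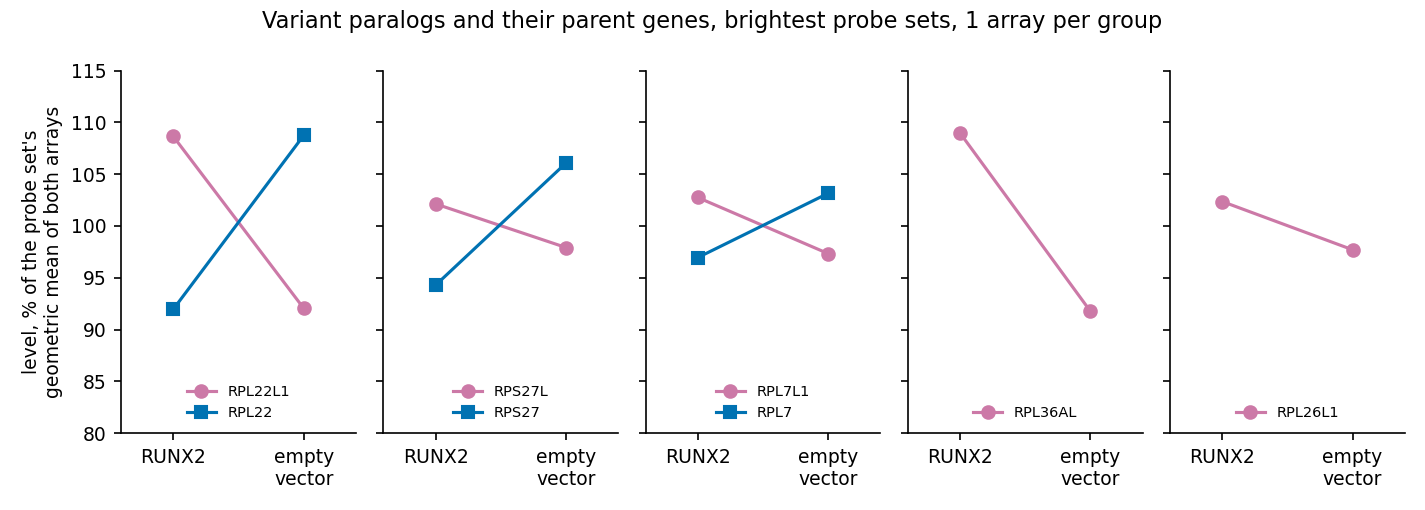
Level of 5 variant paralogs (circles) and, where measured at high level, of their parent genes (squares) in the array labelled RUNX2 and the empty vector array, each as a percentage of the probe set's own geometric mean, with 1 array per group. RPL22L1 was 1.18-fold higher while RPL22 lay lower in the array labelled RUNX2, and the same opposite slopes, smaller, appear for RPS27L with RPS27 and RPL7L1 with RPL7. Brightest probe sets are drawn; with the dim unique probe sets of RPS27 and RPL7 the gap turns.

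Many ribosomal protein genes also had dim probe sets, and these did not follow the bright ones. Of 34 measured members under a level of 2000, 30 belonged to 21 genes that also had a bright probe set. Of the 30, 21 were above 0, where 45.2% of all measured probe sets under that level were above 0. RPL37 differed most. Its bright probe set 200092_s_at read 13437 in the array labelled RUNX2 and 14122 in the empty vector array, a ratio of -0.07. The dim unique 224763_at read 244 in the array labelled RUNX2 and 823 in the empty vector array, 3.38-fold lower, and 224767_at read 278 in the array labelled RUNX2 and 517 in the empty vector array, 1.86-fold lower. The other dim one, 224766_at, went the opposite way, with 233 in the array labelled RUNX2 and 124 in the empty vector array, 1.87-fold higher. The 3 dim probe sets of RPL37 thus disagree among themselves, and which transcripts they read was not tested.

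At least 1.5-fold differences, found for 13.2% of all measured probe sets, occurred in 7 members, all of them dim. Besides those of RPL37, 200962_at of RPL31 was 1.92-fold lower, with 467 in the array labelled RUNX2 and 896 in the empty vector array, and another dim RPL31 probe set had 0.30. RPS24, known for alternative splicing at its 3′ end, had 754 in the array labelled RUNX2 and 1278 in the empty vector array in 1555878_at, 1.70-fold lower, beside -0.12 in its bright probe set. Higher in the array labelled RUNX2 were 236621_at of RPS27 (178 in the array labelled RUNX2 and 106 in the empty vector array, 1.68-fold) and 239493_at of RPL7. The last read 127 in the array labelled RUNX2 and lay under the floor in the empty vector array, and was at least 2.31-fold higher. These 2 also oppose the bright probe sets of their genes. Sign changes between unique probe sets of 1 gene were further seen for RPS15A (-0.39 and 0.54), RPL18 (-0.31 and 0.07), RPS16 (-0.15 and 0.20) and RPS23 (-0.11 and 0.24). The dim unique probe sets of RPL37A, RPS28, RPS21 and RPL35A had 0.37, 0.21, 0.20 and 0.20, each beside bright ones below 0.

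**Figure D4:**
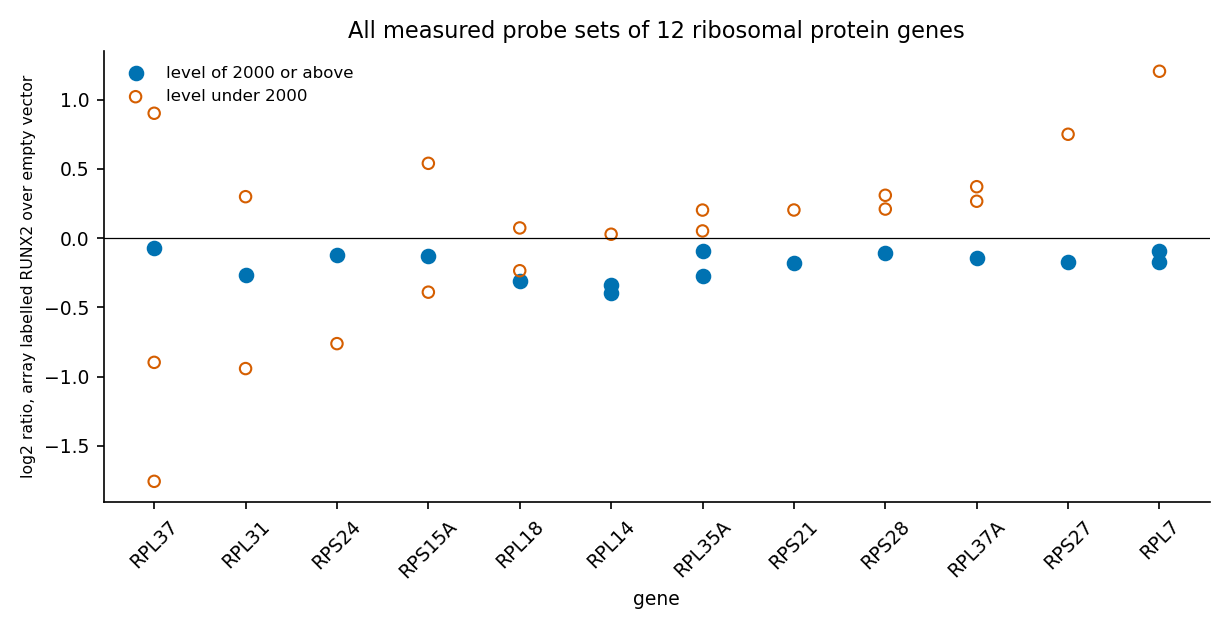
Log2 ratio (array labelled RUNX2 over empty vector, 1 array each) of every measured probe set of 12 ribosomal protein genes, filled for a level of 2000 or above and open under 2000. The filled points lie between -0.40 and -0.07, and the open ones between -1.76 for RPL37 and 1.21 for RPL7, on both sides of 0.

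Which probe set stands for a gene therefore changed the gene counts. With a unique probe set preferred to any other, however dim, 44 of 58 measured genes were below 0, against 57.6% of all 12729 measured genes, with a median of -0.14. At least 1.2-fold lower were 9 genes (26.6% of all genes) and at least 1.2-fold higher were 3, RPL7, RPS27 and RPL37A (19% of all genes). With the brightest probe set, 52 of 58 were below 0, against 57.4%, with 6 at least 1.2-fold lower (26.2%) and 0 at least 1.2-fold higher (18.7%). The median was again -0.14. Over all genes the medians were -0.07 and -0.06 under these rules. The large and small subunit medians were -0.13 and -0.15 with unique probe sets preferred, and both -0.14 with the brightest.

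Other genes of the translation pathway were read from lists. Translation factors and other non-ribosomal genes whose mRNAs are known to carry a TOP tract lay on the same side as the ribosomal proteins. In the brightest probe set, 14 of 15 measured genes of this list were below 0, against 57.4% of all genes, and 8 were at least 1.2-fold lower, against 26.2%, with a median of -0.30. EIF4B, an initiation factor that assists the helicase eIF4A, read 955 in the array labelled RUNX2 and 1437 in the empty vector array (-0.59). EIF3L, a subunit of initiation factor 3, read 3818 in the array labelled RUNX2 and 5199 in the empty vector array (-0.45). The elongation factor EEF2 read 7244 in the array labelled RUNX2 and 9211 in the empty vector array (-0.35), and the poly(A)-binding protein PABPC1 13537 in the array labelled RUNX2 and 15900 in the empty vector array (-0.23). EIF3A alone was above 0, with 0.09. With unique probe sets preferred the list had a median of -0.19 and 11 below 0. In that reading the mRNA-binding protein HNRNPA1 was 2.21-fold higher, while its brightest probe set had -0.30. EIF3F and NACA likewise had 0.45 and 0.48, against -0.56 and -0.14 in their brightest probe sets.

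Genes that build ribosomes were mostly read at lower intensities, and the few of them with a bright probe set had list medians between -0.18 and -0.02. Of 25 measured nucleolar assembly factors, 17 were above 0, against 42.4% of all genes, and 14 at least 1.2-fold higher, against 19%, with 0 at least 1.2-fold lower and a median of 0.27 under either rule. NIP7, an assembly factor of the large subunit, read 820 in the array labelled RUNX2 and 408 in the empty vector array, 2.01-fold higher. RRS1 read 824 in the array labelled RUNX2 and 465 in the empty vector array (1.77-fold higher). NOP16 read 548 in the array labelled RUNX2 and 321 in the empty vector array in a unique probe set (1.70-fold higher). Its brightest probe set read 1680 in the array labelled RUNX2 and 1127 in the empty vector array (log2 ratio 0.58). RNA polymerase I genes, which transcribe ribosomal RNA, had a median of 0.14 over 15 genes with 11 above 0, against 42.4% of all genes. With unique probe sets preferred, their widest ratios were TAF1D at 0.64, TAF1B at a bound of 0.48 and POLR1G at 0.41. The brightest probe set of TAF1B had 0.19. Export and late maturation factors, with unique probe sets preferred, had a median of 0.13 over 14 genes. Of these 8 were above 0, against 42.4% of all genes. At least 1.2-fold lower were 3 (26.6% of all genes) and higher 5 (19%). Among them LTV1, GTPBP4 and HEATR3 had 0.70, 0.62 and 0.57, while NMD3, the export adaptor of the large subunit, had -0.43. The brightest probe set of GTPBP4 had 0.44. Few genes of these lists had a probe set of level 2000 or above, and in those the medians were -0.02 for 5 assembly factors, -0.06 for 1 polymerase I gene and -0.18 for 3 export factors. The 54 ribosomal protein genes read at that level had -0.15. The bright medians of the lists rest on few genes and do not compare dim with bright probe sets of the same gene.

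Regulators went both ways. Of 19 genes, 12 were above 0 (42.4% of all genes), with a median of 0.13, and of 0.03 in 3 bright ones. MXI1, a MYC antagonist, read 825 in the array labelled RUNX2 and 1541 in the empty vector array (-0.90), and MXD1, another antagonist, 366 in the array labelled RUNX2 and 206 in the empty vector array (0.83). MYC, which drives ribosomal protein genes in many cells, read 2856 in the array labelled RUNX2 and 3945 in the empty vector array (-0.47). EIF4EBP1, the translation repressor controlled by mTOR, had -0.48. Mitochondrial ribosomal proteins, which serve the separate ribosome of the mitochondrion, had a median of 0.10 over 75 genes with 51 above 0 in the brightest probe set, against 42.6% of all genes. The difference between these lists and the cytosolic ribosomal proteins has no test with 1 array per group, and the lists were read at other intensities. Median levels of the assembly factors were 716 in the array labelled RUNX2 and 465 in the empty vector array, and those of the cytosolic ribosomal proteins 11235 in the array labelled RUNX2 and 12828 in the empty vector array.

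**Figure D5:**
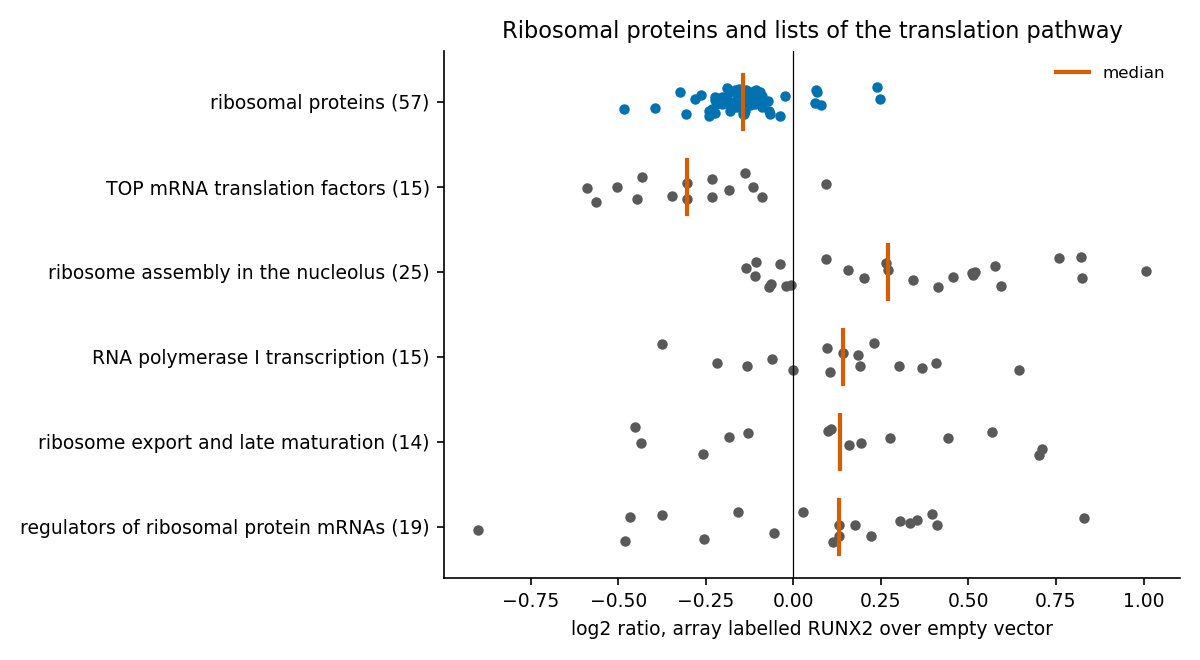
Log2 ratio (array labelled RUNX2 over empty vector, 1 array each) of the brightest probe set of each measured gene, for ribosomal proteins and 5 lists of the translation pathway, with an orange bar at each median and the number of genes drawn in brackets. The medians are -0.14 for ribosomal proteins, -0.30 for TOP translation factors and 0.27 for nucleolar assembly factors, and 2 of the 3 remaining medians are 0.13. In bright probe sets alone the assembly median is -0.02. RPS4Y1 is not drawn.

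The run of C and T near the start was set beside the ratios as a description, without sorting genes by TOP tract. Among genes with a bright probe set that are not variant paralogs and are in the sequence table, 33 with the run at their start had a median of -0.15, between -0.40 and -0.02. The 10 without it had a median of -0.22, between -0.48 and -0.04. The ranges overlap, and the difference between the medians was not tested. RPL39, with the longest run of the sequences shown above, had the ratio nearest to 0 of these genes.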

How the data were processed

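Total RNA of 2 samples, 1 per group, was labelled as biotinylated cRNA and read on Affymetrix human arrays (per the labels' protocols). Each probe set has a linear intensity deposited by the authors, and the submitters' processing notes name MAS5 without version or scaling target, so the summary and scale of the intensities stay unknown in part. The 62 control probe sets were left out. Symbols came from the platform's annotation: 41091 probe sets had 1 symbol, 1801 several and 11721 none here, and symbols were updated by Entrez ID through RefSeq. Arrays were scaled to equal 2% trimmed means. Values under the floor, each array's median, were raised to it, which makes the ratio a bound. A gene was stood for by its brightest unique probe set, else _s_at, else _x_at. Named genes were the stalk, MDM2-binding and paralog genes, the 6 lowest and 6 highest by unique probe set, unique probe sets of opposite sign, members at 1.5-fold and the 3 widest per pathway list. The others named, most of them by their brightest probe set, were chosen after their values were seen. Members and lists were chosen with earlier results of these data known. Sequences are from a RefSeq table of GRCh38.p14. Scripts were tested on simulated data with python 3.11.15, pandas 2.3.3 and numpy 2.4.6. Scaling, floor, probe set choice and thresholds were varied.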

Additional observations from a re-analysis of the deposited data

How the results depend on the processing

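No paired analysis was possible because each group has 1 array. The tolerance for a moved median was 0.06 on the log2 scale, the SD between bright probe sets of 1 member gene. With equal medians the member gene median was -0.05 (5 lower and 8 higher at 1.2-fold), and that of member probe sets -0.05 (9 and 17), by class -0.04 for unique and _s_at and -0.11 for _x_at. The pathway lists then stood at -0.10 (TOP factors), 0.36 (assembly), 0.23 (polymerase I), 0.23 (export) and 0.22 (regulators). After quantile normalization the member medians were -0.08 for genes and for probe sets, by class -0.05 unique, -0.07 _s_at and -0.13 _x_at. The median of member genes lay -0.08 from that of all genes on the log2 scale, and the same with equal medians, which move all genes alike. After quantile normalization this distance was -0.03. It was also -0.03 with the floor at the 25th percentile and without a floor, and -0.14 with the floor at the 75th percentile. On the deposited scale 5 member genes were at least 1.2-fold higher, and with the floor at the 75th percentile 1 gene and 6 probe sets, with an offset also 6 probe sets. With the brightest probe set, or with bright ones only (added after seeing the data), 0 genes were, and 0 bright probe sets. With only unique probe sets 18 of 28 genes were below 0, a lower share than the 44 of 58 with unique ones preferred. Of 21 dim unique probe sets of members, 14 were above 0, against 45.2% of all measured probe sets under level 2000. At 1.1-fold, 32 genes were lower and 8 higher, and 59 probe sets lower and 17 higher. At 1.5-fold 3 genes were lower and 2 higher, and 4 probe sets lower and 3 higher. Of all measured probe sets, 13.2% differed at least 1.5-fold either way. No share over all genes or probe sets is given here for the other counts past a fold, so they are not set against a background.

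The difference of paralog and parent, taken as the median over 3 pairs, depended on the probe sets of both: -0.69 with unique probe sets preferred, where dim ones stood for RPL7 and RPS27, -0.07 with the floor at the 25th percentile or without a floor, where RPS27L was read at 0.68, -0.45 with an offset and -0.12 as a mean over probe sets. It was reversed at 0.23 with the floor at the 75th percentile, with the brightest probe set and with bright ones only, and at 0.58 with only unique probe sets, where 1 pair was left. For the lists, TOP factors had -0.30 with the brightest or bright probe sets only. Assembly factors had 0.34 with the floor at the 25th percentile, with no floor, as a mean and with unique probe sets only, 0.43 with the floor at the 75th percentile, and -0.02 with bright ones only. Polymerase I genes had 0.08 with an offset, 0.22 as a mean and -0.06 with bright ones only. Export factors had 0.03 with unique probe sets only and -0.18 with bright ones only, and regulators 0.03 in both. The cause of these differences was not tested, except that fewer genes are left with bright or unique probe sets.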

Other observations

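Probe sets that carry a cytosolic ribosomal protein symbol among several symbols, mostly those of snoRNAs in its introns, name no single gene and were not members. Of 65 such probe sets, 61 were measured and 47 had a level of 2000 or above. Of the 47, 46 were below 0, against 53.8% of all probe sets of that level. The median log2 ratio of the 47 was -0.22 (array labelled RUNX2 over empty vector). At least 1.2-fold lower were 16, against 17.9% of all probe sets of that level. The exception, at 0.13, was a probe set that also carries NDUFS5, a subunit of respiratory complex I.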
